A study of Mus musculus with 15 samples.

Results

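The G1 cell cycle engine of mouse hematopoietic stem cells (HSCs) was described through 10 genes: the D-type cyclins Ccnd1, Ccnd2 and Ccnd3, their kinases Cdk4 and Cdk6, the E-type cyclins Ccne1 and Ccne2, their kinase Cdk2, and the transcription factors E2f1 and E2f3. The genes were chosen by name, all 10 were found among the 46123 genes of every library, and all 10 passed the filter on low counts in each comparison. The 15 libraries were made from 100 sorted cells each, from the bone marrow HSCs of wild type C57BL/6 mice aged 8 to 10 weeks. The 4 groups were HSCs of mice at day 4 after 5-fluorouracil (5-FU day4, n = 4), HSCs cultured with nifedipine (Nifedipine, n = 4), HSCs cultured without it (Control, n = 3) and fresh HSCs of untreated mice (Untreated, n = 4). 5-FU is a fluorinated pyrimidine toxic to dividing blood cells, and HSCs that survive it enter division. Nifedipine is a calcium channel blocker of the dihydropyridine class, which acts on the L-type channels. Both cultured groups held only cells sorted from the population within 3 divisions, so cells that had divided more often were removed before sequencing. The sources used here do not give drug doses, culture length or the sorting gate.

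A resting cell leaves quiescence when D-type cyclins bind CDK4 or CDK6 and the kinases phosphorylate the retinoblastoma proteins, which releases E2F factors to switch on genes for DNA synthesis. Cyclin E is itself such an E2F target, and with CDK2 it completes the phosphorylation and carries the cell into S phase. Most adult HSCs rest outside the cycle. Mouse embryos that lack all D-type cyclins, or both Cdk4 and Cdk6, fail in blood formation, and in human HSCs the level of CDK6 has been tied to how fast a cell leaves quiescence.

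Exon reads per library ranged from 6171730 to 26673045. Levels are given as TMM-scaled RPKM, which are exon reads divided by exon length and by library size after edgeR's TMM scaling over all 15 libraries, so they can be compared between genes. Log2 fold changes come from edgeR's quasi-likelihood test on the counts of the groups compared, each with its standard error, and a gene passed the test when its adjusted p was at most 0.05. None of the 10 HSC markers (Kit, Slamf1, Procr and others) was at 0 reads in any group. Their summed level was 3616 to 3869 CPM (exon reads scaled to library size) after 5-FU, 2363 to 2617 CPM with nifedipine, 1455 to 1536 CPM in Control and 5164 to 5550 CPM in Untreated. The Untreated libraries were uneven in markers of other cells. The 12 endothelial and stromal markers summed to 195 to 564 CPM after 5-FU and 278 to 1909 CPM in Untreated, and the 8 erythroid markers to 255 to 340 CPM after 5-FU and 70.7 to 1893 CPM in Untreated. No endothelial and stromal marker was at 0 reads in either group, while Hba-a1 and Car1, of the erythroid markers, were at 0 reads after 5-FU. In Untreated replicates 1 to 4, in order, the endothelial and stromal markers summed to 980, 1909, 278 and 757 CPM. The erythroid markers there summed to 70.7, 1647, 87.6 and 1893 CPM.

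After 5-FU, 8 of the 10 genes rose, 1 (Ccnd2) fell and 1 (Cdk6) did not pass the test. Among all 13384 genes tested, 50.5% were called, 26.7% higher and 23.8% lower. With the read total behind the deposited RPKM as the library size, 73.6% of all calls were higher, against 52.9% under TMM, and the same count of 8 members was higher. In 8 members every 5-FU library lay above every Untreated library and in 1 every 5-FU library lay below; among all genes tested 47.4% were separate in this way, 24.1% higher and 23.3% lower. The median log2 fold change of the 10 genes was 0.86, and that of all genes was -0.02. Of the other markers, 0 of 12 endothelial and stromal genes rose and 7 fell, and 1 of the 4 tested erythroid markers rose and 1 fell. Of the 5 tested megakaryocyte markers 0 rose and 1 fell, of the 5 tested granulocyte and macrophage markers 0 rose and 2 fell, and neither of the 2 tested lymphoid markers passed the test. Of the 10 HSC markers 0 rose and 6 fell. The part of these markers in the changes of the G1 genes was not tested. The 8 genes were called higher whichever library was left out. Fewer cells that express a gene and less of its RNA per cell cannot be told apart in libraries of pooled cells.

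With nifedipine, 2 genes rose (Ccnd1 and Ccnd2), 6 fell (Ccnd3, Cdk4, Cdk6, Ccne1, Ccne2 and E2f1) and 2 did not pass the test (Cdk2 and E2f3). Among all 12807 genes tested, 49.9% were called, 25.8% higher and 24.2% lower. In 2 members every nifedipine library lay above every Control library and in 7 below; among all genes tested 51.2% were separate, 25.7% higher and 25.5% lower. The median of the 10 genes was -0.33, against 0.02 for all genes. Markers of other cells moved in both directions with nifedipine. Of the 5 tested megakaryocyte markers 0 rose and 4 fell, with a median of -1.01; the 6 markers of that list summed to 123 to 257.5 CPM with nifedipine and 265 to 438 CPM in Control, and Gp1bb was at 0 reads with nifedipine. Of the 4 tested erythroid markers 0 rose and 3 fell, with a median of -1.05; the 8 markers of that list summed to 106 to 165 CPM with nifedipine and 207 to 260 CPM in Control, and Car1 was at 0 reads in both groups. Of the 2 tested lymphoid markers 1 fell. Of the 10 HSC markers 7 rose and 1 fell. Of the 8 tested endothelial and stromal markers only Tek and Emcn rose, 0 fell and 6 did not pass the test. Tek averaged 22.9 TMM-scaled RPKM with nifedipine and 14.9 in Control, and Emcn averaged 11.6 and 6.82. Of the 4 tested granulocyte and macrophage markers 3 rose and 0 fell. The 11 granulocyte and macrophage markers summed to 218 to 240 CPM with nifedipine and 66.5 to 85.5 CPM in Control. Elane, Mpo, S100a8 and S100a9 were at 0 reads in both groups, and Ctsg, Ly6g and Adgre1 were at 0 reads in Control as well. The part of these markers in the changes of the G1 genes was not tested.

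In Control against Untreated, 8 genes rose, none fell, and Ccnd1 and Ccnd2 did not pass the test. Of the 13520 genes tested 72.0% were called, 35.8% higher and 36.1% lower. The same 8 members were separate between the groups, all higher in Control; of all genes tested 72.0% were separate, 34.6% higher and 37.4% lower. With the read total behind the deposited RPKM, 60.1% of all calls were higher, against 49.8% under TMM. Culture and experiment cannot be told apart in this comparison, and it shares the Untreated libraries with the 5-FU comparison and the Control libraries with the nifedipine comparison. Of the 12 endothelial and stromal markers, 1 rose and 11 fell; they summed to 216 to 240 CPM in Control and 278 to 1909 CPM in Untreated, and Cxcl12 and Pdgfra were at 0 reads in Control. Of the 6 tested erythroid markers, 1 rose and 4 fell. Of the 6 tested granulocyte and macrophage markers 0 rose and 6 fell, with a median of -2.17; the 11 markers of that list summed to 66.5 to 85.5 CPM in Control and 155.5 to 198 CPM in Untreated. Of the 5 tested megakaryocyte markers 2 rose and 1 fell. On the log2 scale Itga2b was higher in Control by 2.23 ± 0.22 and Pf4 by 1.37 ± 0.44. Vwf was the marker that fell, at -0.42 ± 0.15, and Gp9 and Ppbp did not pass the test. Pf4 was uneven in Control, at 42.3 ± 30.2 TMM-scaled RPKM, against 16.8 ± 5.23 in Untreated (mean and SD). The 6 megakaryocyte markers summed to 265 to 438 CPM in Control and 292 to 387 CPM in Untreated. Of the 2 tested lymphoid markers 1 fell, and of the 10 HSC markers 0 rose and 9 fell. The part of these markers in the changes of the G1 genes was not tested.

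**Figure D1:**
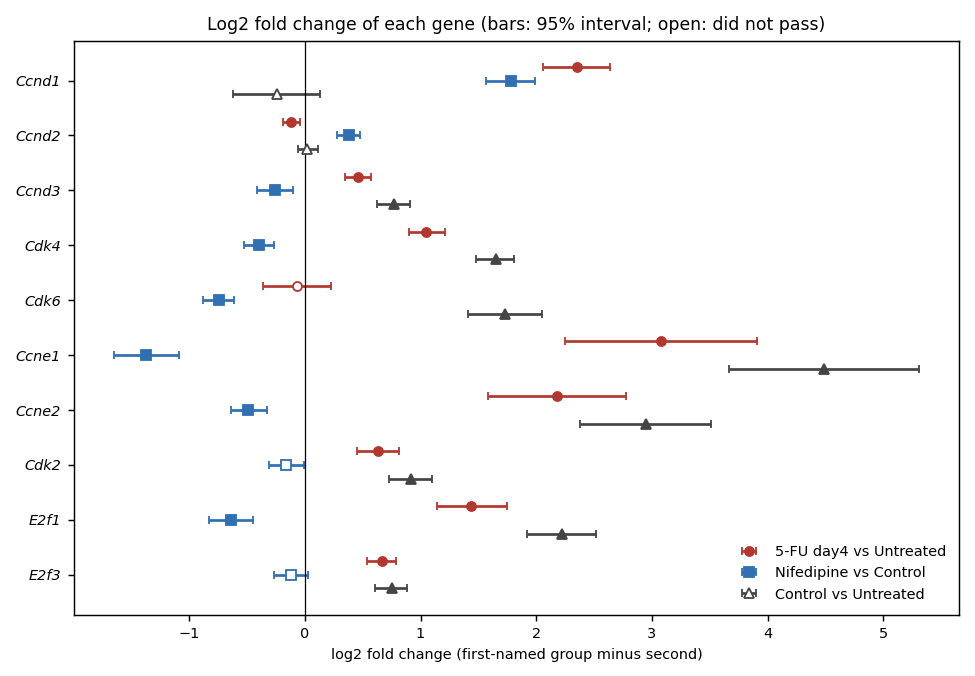
Log2 fold changes of the 10 genes in the comparisons of 5-FU day4 with Untreated, Nifedipine with Control, and Control with Untreated; bars span 95% intervals and open symbols mark genes that did not pass the test. Ccnd1 is higher after 5-FU (2.35) and with nifedipine (1.78) and not called in Control against Untreated (-0.24), whereas Ccne1 is higher after 5-FU (3.08) and in Control (4.49) and lower with nifedipine (-1.37).

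The 3 D-type cyclins behaved differently from each other. Ccnd1 (chromosome 7, 144929931 to 144939937) encodes cyclin D1, a sensor of mitogens whose transcription depends on growth factor signals in many cell types. Its level was 55.4, 56.8, 49.0 and 61.8 after 5-FU, against 9.14, 9.59, 10.7 and 15.1 in Untreated libraries. It was 29.5, 32.2, 32.6 and 30.2 with nifedipine, against 9.66, 10.4 and 7.19 in Control libraries. The groups of each pair were separate by a wide margin, the lowest 5-FU library standing above the highest Untreated library and the lowest nifedipine library above the highest Control library. Ccnd1 rose 5.09-fold after 5-FU (log2 2.35 ± 0.15, adjusted p = 2.92e-06) and by 1.78 ± 0.11 on the log2 scale with nifedipine (adjusted p = 4.24e-10). Control and Untreated libraries overlapped, and the difference of -0.24 ± 0.19 did not pass the test (adjusted p = 0.272). Ccnd1 was thus the member at the bottom of the 10 in Control by mean level, at 9.08 ± 1.67 (SD, n = 3), and ranked behind only Cdk4 and Ccnd2 after 5-FU, at 55.7 ± 5.28 (SD, n = 4).

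Ccnd2 (chromosome 6, 127125162 to 127152188) encodes cyclin D2, which can take the place of the other D-type cyclins with the same kinases. Its level was 84.0, 86.4, 84.3 and 88.0 after 5-FU, against 94.6, 97.2, 95.3 and 92.3 in Untreated libraries. With nifedipine it was 117, 121, 123 and 120, against 93.6, 90.9 and 94.0 in Control libraries. Ccnd2 was the member with the highest mean level in Untreated HSCs, at 94.8 ± 2.00 (SD, n = 4), and it was the least variable of the 3 across groups. It rose by 0.38 ± 0.05 with nifedipine (adjusted p = 7.3e-06). After 5-FU it fell by 0.12 on the log2 scale, with an error of 0.04 (adjusted p = 0.0227), a call that rested on the scaling: with the read total behind the deposited RPKM as the library size the value was 0.08 (adjusted p = 0.168), and with exon length as an offset it was -0.03 (adjusted p = 0.533). Without Untreated replicate 2 the value was -0.10 (adjusted p = 0.0673). The Control to Untreated value of 0.02 ± 0.04 did not pass the test (adjusted p = 0.676), and its sign changed with the processing, at -0.15 (adjusted p = 0.011) among genes with a mean of at least 10 CPM and 0.26 (adjusted p = 0.00295) with the read total of the RPKM.

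Ccnd3 (chromosome 17, 47505051 to 47599689) encodes cyclin D3, which in mice is needed for the expansion of lymphoid and granulocyte precursors. Its level was 45.6, 42.4, 44.4 and 41.3 after 5-FU, against 30.8, 32.8, 33.8 and 31.6 in Untreated libraries, and it rose by 0.46 ± 0.06 (adjusted p = 8.64e-05). It was 43.4, 40.4, 44.3 and 48.5 with nifedipine, against 52.4, 48.8 and 57.4 in Control libraries. The last pair of groups nearly touched, with 48.5 as the highest nifedipine library and 48.8 as the lowest Control library. Ccnd3 fell by 0.26 on the log2 scale with nifedipine, with an error of 0.08 (adjusted p = 0.0108), and without Control replicate 3 the value of -0.20 no longer passed (adjusted p = 0.081). It rose by 0.77 in Control against Untreated (adjusted p = 8.13e-06).

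**Figure D2:**
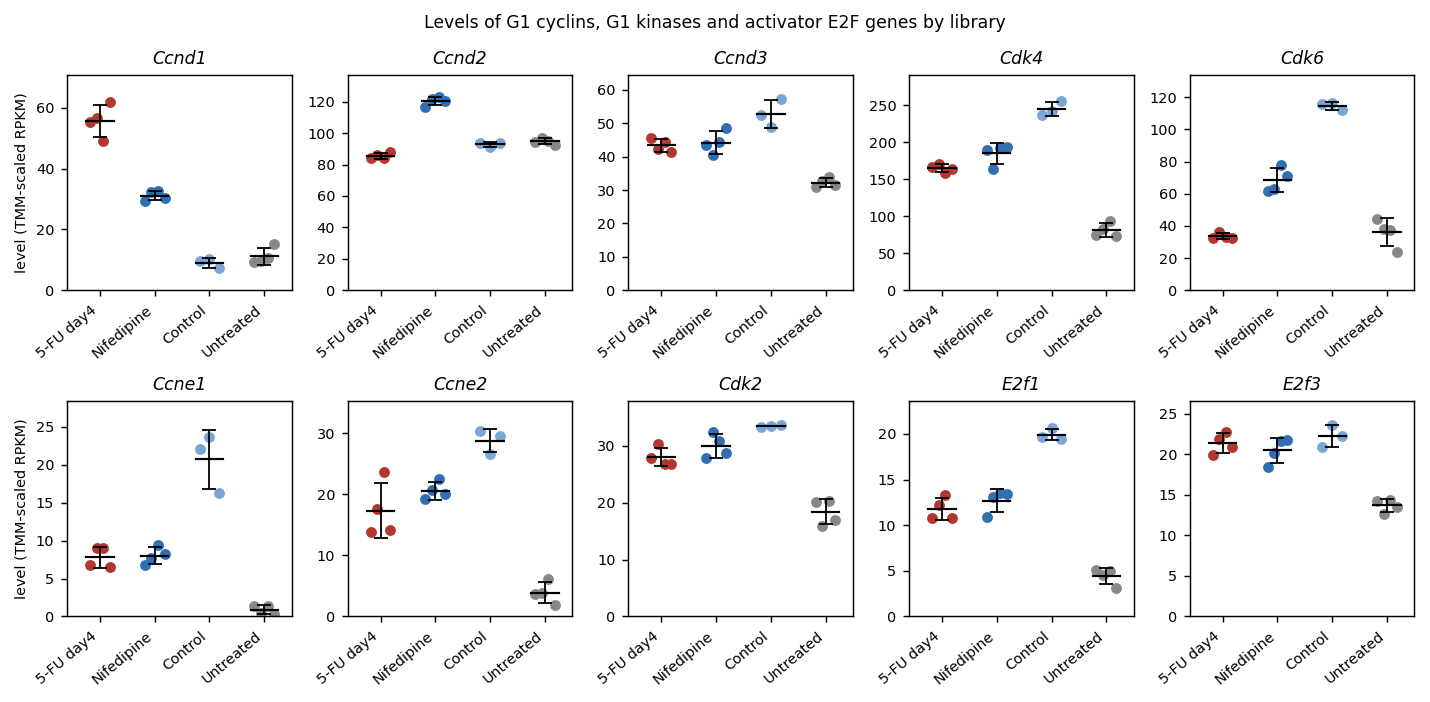
Level of each of the 10 genes in each library, in TMM-scaled RPKM on linear axes that start at 0, with points for libraries and bars for the group mean and SD (n = 4 for 5-FU day4, Nifedipine and Untreated, n = 3 for Control). Ccnd1 stands highest after 5-FU (49.0 to 61.8) and next with nifedipine (29.5 to 32.6), while Cdk4, Cdk6, Ccne1 and Ccne2 stand highest in Control.

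The make-up of the D-type cyclin pool was compared as the share of each gene in the summed deposited RPKM of the 3 genes in the same library, a ratio that does not depend on library size. Ccnd1 made up 30.1% ± 1.98 of the pool after 5-FU and 8.03% ± 1.90 in Untreated (SD, n = 4 each), a difference of 22.1 percentage points (exact two-sided permutation p = 0.0286, 0.039 after Benjamini-Hochberg adjustment over 15 share tests). With nifedipine it made up 15.9% ± 0.67 (SD, n = 4), against 5.89% ± 1.22 in Control (SD, n = 3), a difference of 10.0 points (exact p = 0.0286, adjusted 0.039). The value 0.0286 is the smallest p these designs allow. Ccnd2 held 46.4% of the pool after 5-FU and 68.6% in Untreated (exact p = 0.0286, adjusted 0.039). With nifedipine it held 61.5%, against 60.0% in Control (exact p = 0.0857, adjusted 0.0989), and as a share of exon reads that difference of 1.52 points became -1.11 points. The Ccnd2 share in Control was lower by 8.64 points than in Untreated (60.0% and 68.6%, exact p = 0.0286, adjusted 0.039), and the Ccnd1 share differed by -2.15 points (5.89% and 8.03%, exact p = 0.171, adjusted 0.184).

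The kinase partners of the D-type cyclins, Cdk4 (chromosome 10, 127063535 to 127067288) and Cdk6 (chromosome 5, 3343893 to 3531008), phosphorylate the retinoblastoma proteins and are in part interchangeable. The 250 bases before the start of each gene are shown because Cdk4 stands out in this window by its count of one motif. The sequences are from RefSeq (GRCm38.p6), 5′ to 3′ on the plus strand, Cdk4 from chr10:127063285-127063534 and Cdk6 from chr5:3343643-3343892, with capitals for each CACGTG, the E-box that MYC and related factors can bind.
Cdk4: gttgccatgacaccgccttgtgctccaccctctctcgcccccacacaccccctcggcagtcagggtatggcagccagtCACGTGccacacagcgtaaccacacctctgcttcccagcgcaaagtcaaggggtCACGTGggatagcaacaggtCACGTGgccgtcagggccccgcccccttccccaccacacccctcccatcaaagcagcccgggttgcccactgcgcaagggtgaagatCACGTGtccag
Cdk6: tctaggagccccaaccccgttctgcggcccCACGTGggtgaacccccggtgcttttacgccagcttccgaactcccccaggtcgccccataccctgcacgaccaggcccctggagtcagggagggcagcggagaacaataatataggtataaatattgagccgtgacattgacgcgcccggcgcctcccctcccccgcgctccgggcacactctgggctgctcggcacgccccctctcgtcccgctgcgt
The Cdk4 window holds 4 copies, which begin at positions -172, -118, -98 and -11 from the transcript start, and the Cdk6 window holds 1, which begins at -220. CACGTG reads the same on both strands. At least 1 copy was present in 7.15% of 32851 RefSeq windows of 300 bases (250 before and 50 after a transcript start), and at least 4 copies in 0.02% (8 windows). The match is a description of the letters and says nothing of binding in these cells.

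Cdk4 was the member with the highest mean level in every group except Untreated, where Ccnd2 stood above it. Its level was 167, 170, 158 and 164 after 5-FU, against 74.0, 82.1, 93.8 and 73.9 in Untreated libraries. It was 190, 164, 192 and 193 with nifedipine, against 236, 242 and 256 in Control libraries. The groups of each pair did not overlap. Cdk4 rose by 1.05 ± 0.08 after 5-FU (adjusted p = 5.91e-06) and by 1.65 in Control against Untreated (adjusted p = 1.64e-07), and with nifedipine it fell by 0.40 on the log2 scale, with an error of 0.07 (adjusted p = 5.78e-05).

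Cdk6 was 32.7, 36.1, 33.2 and 32.7 after 5-FU, against 44.4, 38.2, 37.6 and 23.8 in Untreated libraries. The 5-FU libraries lay inside the Untreated range, of which replicate 4 set the low end. The difference of -0.07 ± 0.15 did not pass the test (adjusted p = 0.738), and its interval ran from -0.36 to 0.23 on the log2 scale; without Untreated replicate 4 it was -0.22 and passed (adjusted p = 0.0238). In the cultured cells Cdk6 was 61.7, 62.9, 78.1 and 71.2 with nifedipine, against 116, 117 and 112 in Control libraries. Every nifedipine library was below every Control library and above every Untreated library. Cdk6 fell by 0.74 on the log2 scale with nifedipine, with an error of 0.07 (adjusted p = 8.83e-08), and rose by 1.73 in Control against Untreated (adjusted p = 8.39e-06).

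Cdk6 thus made up 17.0% of the summed RPKM of Cdk4 and Cdk6 after 5-FU and 30.5% in Untreated, a difference of -13.6 points (exact two-sided permutation p = 0.0286, adjusted 0.039). The call was lost when any of the 4 5-FU libraries was left out (exact p = 0.0571 each time, with differences of -13.7 to -13.4 points). With nifedipine the Cdk6 share was 27.0%, against 31.9% in Control (exact p = 0.0286, adjusted 0.039). Control and Untreated differed by 1.40 points (31.9% and 30.5%, exact p = 0.686), a difference between the kinases that did not pass the test. Exon length is 1420 bases for Cdk4 and 11525 for Cdk6, and the shares were not computed with the exon length offset. That offset gave log2 values after 5-FU of 0.85 for Cdk4 and 0.14 for Cdk6. In Control against Untreated the values over all alternatives ran from 1.29 to 1.88 for Cdk4 and from 1.55 to 2.28 for Cdk6.

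**Figure D3:**
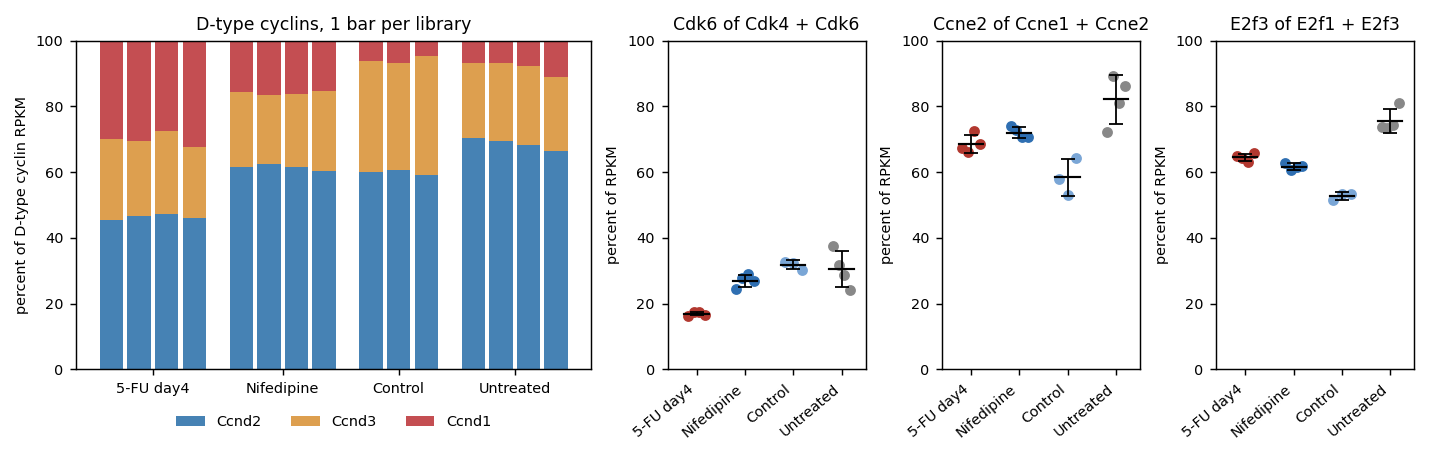
Left, stacked bars of the share of Ccnd2, Ccnd3 and Ccnd1 in the D-type cyclin RPKM, in percent, with 1 bar for each library; the other panels give the share of Cdk6, Ccne2 and E2f3 in its pair, with a point for each library and lines for the group mean and SD. The Ccnd1 share averaged 30.1% after 5-FU and 15.9% with nifedipine, above 5.89% in Control and 8.03% in Untreated.

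The E-type cyclins, which activate CDK2 at the entry to S phase, were higher after 5-FU and in Control and lower with nifedipine. Ccne1 (chromosome 7, 38097984 to 38107490) was 6.73, 9.00, 8.98 and 6.52 after 5-FU, against 1.40, 0.458, 1.43 and 0.299 in Untreated libraries. The Untreated values rest on 49, 6, 49 and 9 reads, so the fold change of this gene is the least precise of the 10. Ccne1 rose by 3.08 ± 0.42 after 5-FU (adjusted p = 0.000175), and the range when each library was left out was 2.77 to 3.35. It was 6.75, 7.71, 9.38 and 8.29 with nifedipine, against 22.1, 23.7 and 16.3 in Control libraries. No nifedipine library reached the lowest Control library, and the nifedipine and 5-FU libraries covered much the same range. Ccne1 fell by 1.37 on the log2 scale with nifedipine, with an error of 0.14 (adjusted p = 3.81e-07), and in Control against Untreated it rose by 4.49 (adjusted p = 7.57e-06).

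Ccne2 (chromosome 4, 11190298 to 11204779) was 13.9, 17.6, 23.6 and 14.2 after 5-FU, against 3.65, 3.87, 6.13 and 1.85 in Untreated libraries, with no overlap. It rose by 2.18 ± 0.31 (adjusted p = 0.000207). It was 19.2, 20.7, 22.6 and 20 with nifedipine, against 30.4, 26.7 and 29.5 in Control libraries, again with no overlap. Ccne2 fell by 0.49 on the log2 scale with nifedipine, with an error of 0.08 (adjusted p = 6.86e-05), a call that was lost when all 4 groups shared 1 fit (adjusted p = 0.0939). It rose by 2.95 in Control against Untreated (adjusted p = 1.12e-05).

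Ccne2 was the more abundant E-type cyclin by RPKM in every group. It made up 68.6% of the pool after 5-FU and 82.2% in Untreated, a difference that did not pass the test (exact two-sided permutation p = 0.0571, adjusted 0.0714). Without Untreated replicate 1 the difference moved to -16.9 points from -13.6 points (exact p = 0.0286). With nifedipine Ccne2 made up 72.0%, against 58.4% in Control (exact p = 0.0286, adjusted 0.039), and in Control it was below the 82.2% of Untreated (exact p = 0.0286, adjusted 0.039). Nifedipine libraries thus held less of both E-type cyclins, with the smaller fold change in Ccne2.

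Cdk2 (chromosome 10, 128697939 to 128705051) encodes the kinase that cyclin E and cyclin A activate. Its window is shown because it was the only one of the 7 members matched in the RefSeq promoter table with an E2F motif outside the gene's own span. The motif was searched on both strands as TTTCCCGC, TTTCGCGC, TTTGCCGC and TTTGGCGC, and at least 1 of these was present in 744 of the 32851 windows (2.26%). E2f3 had 1 match inside its span, at position -11 from a transcript start. The windows of Ccne1 and E2f1 held 0 matches, and the E2f1 transcript start lay 466 bases inside its span. A match describes the letters alone and says nothing of binding in these cells. The sequence is chr10:128705052-128705301 on the minus strand (GRCm38.p6, RefSeq), with capitals for GCGGGAAA, the reverse complement of the first motif, which begins at position -140 from the transcript start.
Cdk2: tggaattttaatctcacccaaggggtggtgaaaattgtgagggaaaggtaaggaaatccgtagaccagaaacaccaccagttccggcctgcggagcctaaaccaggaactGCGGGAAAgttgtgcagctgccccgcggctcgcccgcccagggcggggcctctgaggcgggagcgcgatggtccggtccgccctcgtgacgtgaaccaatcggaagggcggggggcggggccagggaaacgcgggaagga
The level of Cdk2 was 27.8, 30.3, 26.9 and 26.9 after 5-FU, against 20.1, 16.0, 20.3 and 17.0 in Untreated libraries, with no overlap. It was 27.8, 32.5, 30.8 and 28.7 with nifedipine, against 33.4, 33.5 and 33.6 in Control libraries, where all nifedipine libraries were the lower ones. Cdk2 rose by 0.63 ± 0.09 after 5-FU (adjusted p = 0.000264) and by 0.92 in Control against Untreated (adjusted p = 1.3e-05). With nifedipine the difference of -0.16 ± 0.08 did not pass the test (adjusted p = 0.0938), and without Nifedipine replicate 2 it was -0.20 and passed (adjusted p = 0.0392). Cdk2 spanned a narrower range than its cyclins: the group means lay between 18.4 and 33.5 for Cdk2 and between 0.897 and 20.7 for Ccne1.

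E2f1 and E2f3 encode activating E2F factors, which drive the genes of DNA synthesis once released from the retinoblastoma proteins. E2f1 (chromosome 2, 154559400 to 154569892), itself an E2F target, was 10.8, 12.2, 13.3 and 10.8 after 5-FU, against 5.06, 4.58, 4.95 and 3.13 in Untreated libraries. It was 10.9, 13.1, 13.5 and 13.4 with nifedipine, against 19.7, 20.6 and 19.4 in Control libraries. Both pairs were separate, and the nifedipine range lay on that of 5-FU. E2f1 rose by 1.44 ± 0.15 after 5-FU (adjusted p = 3.64e-05) and by 2.22 in Control against Untreated (adjusted p = 9.08e-07), and with nifedipine it fell by 0.64 on the log2 scale, with an error of 0.10 (adjusted p = 2.19e-05).

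E2f3 (chromosome 13, 29906575 to 29986119) was 19.9, 21.9, 22.8 and 20.9 after 5-FU, against 14.3, 12.7, 14.4 and 13.5 in Untreated libraries, and it rose by 0.67 ± 0.06 (adjusted p = 1.77e-05). It was 18.4, 20.2, 21.6 and 21.8 with nifedipine, against 20.9, 23.6 and 22.3 in Control libraries. These ranges overlapped, and the difference of -0.12 ± 0.08 did not pass the test (adjusted p = 0.222), while with exon length as an offset it was -0.20 and passed (adjusted p = 0.0344). It rose by 0.75 in Control against Untreated (adjusted p = 6.75e-06). E2f3 made up 64.5% of the summed RPKM of E2f1 and E2f3 after 5-FU and 75.7% in Untreated, and 61.7% with nifedipine, against 52.8% in Control (exact two-sided permutation p = 0.0286, adjusted 0.039, in each pair). In Control it was lower by 22.9 points than in Untreated (52.8% and 75.7%, exact p = 0.0286, adjusted 0.039).

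Genes that E2F factors switch on moved in the same direction as E2f1 in each comparison. The list of these genes was chosen with earlier results of these data known. E2f1 and the list were also read from the same counts, so the shared direction is a description and no independent support. Of 27 E2F target genes of the G1/S transition, 27 rose and 0 fell after 5-FU, 0 rose and 27 fell with nifedipine, and 27 rose and 0 fell in Control against Untreated. Of all genes tested, 26.7% rose after 5-FU, 24.2% fell with nifedipine and 35.8% rose in Control against Untreated. The median log2 fold changes of the 27 genes were 1.72, -0.66 and 2.22 in that order of comparisons, against -0.02, 0.02 and -0.05 for all genes tested. Over all alternatives 26 or 27 of the genes had that call in each comparison. After 5-FU, Mcm2, a subunit of the replicative helicase, averaged 90.3 ± 1.59, against 28.0 ± 6.28 in Untreated (SD, n = 4 each), a log2 fold change of 1.72 ± 0.13. Rrm1, a subunit of ribonucleotide reductase, averaged 124 ± 6.30 after 5-FU and 34.1 ± 7.73 in Untreated (log2 1.89 ± 0.14). Tk1, the cytosolic thymidine kinase, averaged 31.0 ± 4.01 after 5-FU and 5.59 ± 1.43 in Untreated (log2 2.48 ± 0.17). With nifedipine, Mcm3 averaged 125 ± 6.39, against 220 ± 6.94 in Control (log2 -0.82 ± 0.06), and Uhrf1, a cofactor of maintenance DNA methylation, averaged 101 ± 9.50, against 175 ± 10.1 in Control (log2 -0.80 ± 0.07). The summed level of the 27 genes was 4955 to 5649 CPM after 5-FU, 4832 to 5474 CPM with nifedipine, 7807 to 7890 CPM in Control and 1264 to 2189 CPM in Untreated.

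**Figure D4:**
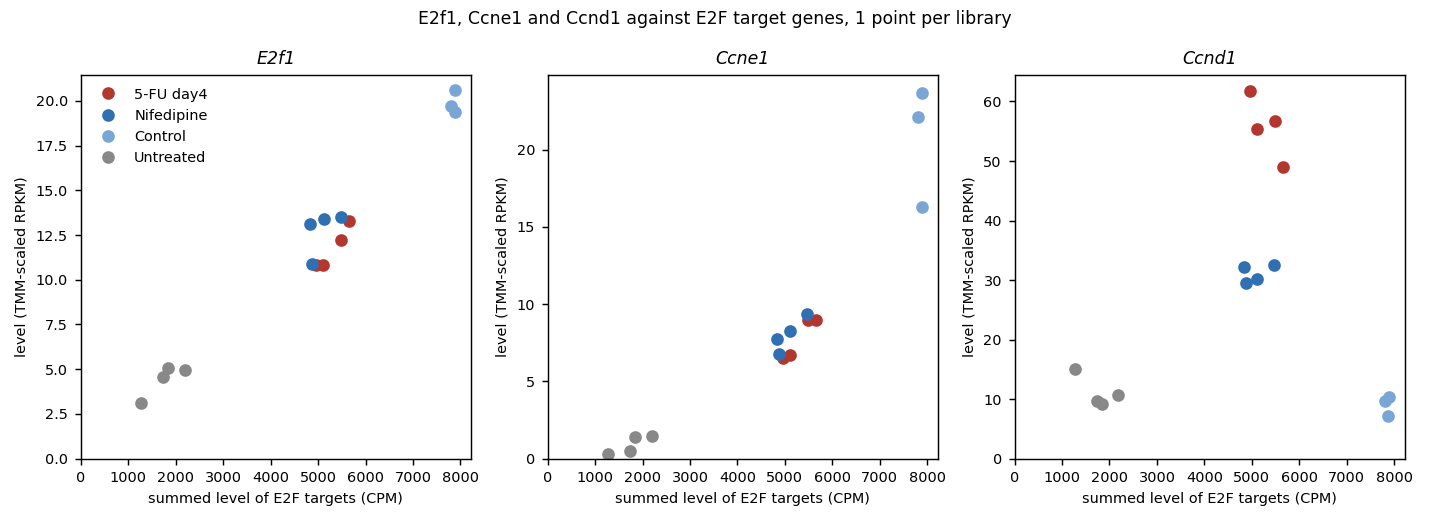
Level of E2f1, Ccne1 and Ccnd1 (TMM-scaled RPKM) against the summed level of the 27 E2F target genes (CPM), with a point for each library, all from the same counts. The E2f1 and Ccne1 points lie low in Untreated, between in 5-FU and nifedipine and high in Control, while the Ccnd1 points are high after 5-FU (49.0 to 61.8) and low in Control (7.19 to 10.4).

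Other E2F family genes moved in both directions. Of 8 genes, 5 rose and 2 fell after 5-FU, 1 rose and 5 fell with nifedipine, and 6 rose and 2 fell in Control against Untreated. In that order of comparisons, 50.5%, 49.9% and 72.0% of all genes tested were called. Tfdp1, the DP partner that E2F factors need to bind DNA, averaged 81.9 ± 2.28 after 5-FU and 28.1 ± 4.53 in Untreated (log2 1.57 ± 0.10). E2f8, an E2F factor that represses E2F targets, averaged 19.0 ± 3.09 after 5-FU and 2.48 ± 2.02 in Untreated (log2 2.91 ± 0.41), and 16.4 ± 1.44 with nifedipine, against 27.4 ± 2.25 in Control (log2 -0.74 ± 0.09). Tfdp2, another DP gene, was the gene that rose with nifedipine, at 18.2 ± 0.27, against 13.3 ± 0.59 in Control (log2 0.46 ± 0.07). Over the alternatives, 0 to 2 genes of this list were called lower after 5-FU and 3 to 5 with nifedipine.

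Of 12 genes that activate CDKs or turn cyclins over, 7 rose and 1 fell after 5-FU, 3 rose and 5 fell with nifedipine, and 8 rose and 1 fell in Control against Untreated. Of all genes tested, 26.7% rose and 23.8% fell after 5-FU, and 25.8% rose and 24.2% fell with nifedipine. In Control against Untreated 35.8% of all genes rose and 36.1% fell, so most genes were called there with or without this list. Cks1b, a CDK-binding protein that works with the ubiquitin ligase subunit Skp2 to degrade the inhibitor p27, averaged 66.8 ± 9.33 after 5-FU and 15.7 ± 3.60 in Untreated (log2 2.11 ± 0.17). It averaged 51.5 ± 5.90 with nifedipine and 102 ± 7.94 in Control (log2 -0.99 ± 0.10). Cdc25a, the phosphatase that removes the inhibitory phosphate from CDK2, averaged 17.9 ± 1.33 after 5-FU and 8.86 ± 2.11 in Untreated (log2 1.04 ± 0.15), and 16.3 ± 2.03 with nifedipine, against 27.8 ± 2.20 in Control (log2 -0.77 ± 0.09). Over the alternatives, 0 to 4 genes of this list were called higher with nifedipine.

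The brakes on the same kinases moved in both directions after 5-FU and in Control against Untreated, and mostly rose with nifedipine. Of 8 tested CDK inhibitors and retinoblastoma genes, 3 rose and 3 fell after 5-FU, and 3 rose and 3 fell in Control against Untreated. With nifedipine 6 of 9 rose and 1 fell. Among all genes tested, 50.5% were called after 5-FU, 72.0% in Control against Untreated and 49.9% with nifedipine (25.8% higher and 24.2% lower). Under the replicate block 4 of the list were called higher and 0 lower with nifedipine. Over the alternatives, 1 to 4 genes of this list were called higher after 5-FU, 4 to 7 with nifedipine and 2 to 5 in Control. Cdkn1a, the inhibitor p21, averaged 31.7 ± 2.85 with nifedipine and 6.15 ± 1.34 in Control (log2 2.37 ± 0.14, adjusted p = 3.3e-10), and Rbl1, the retinoblastoma relative p107, averaged 52.4 ± 2.49 after 5-FU and 22.0 ± 2.82 in Untreated (log2 1.28 ± 0.09). The 3 that fell after 5-FU were Cdkn1b (log2 -0.72 ± 0.09), Cdkn1c (-0.49 ± 0.12) and Rbl2 (-0.40 ± 0.06). The same 3 fell in Control against Untreated, by log2 values of -0.71 ± 0.13, -2.32 ± 0.13 and -0.83 ± 0.06.

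**Figure D5:**
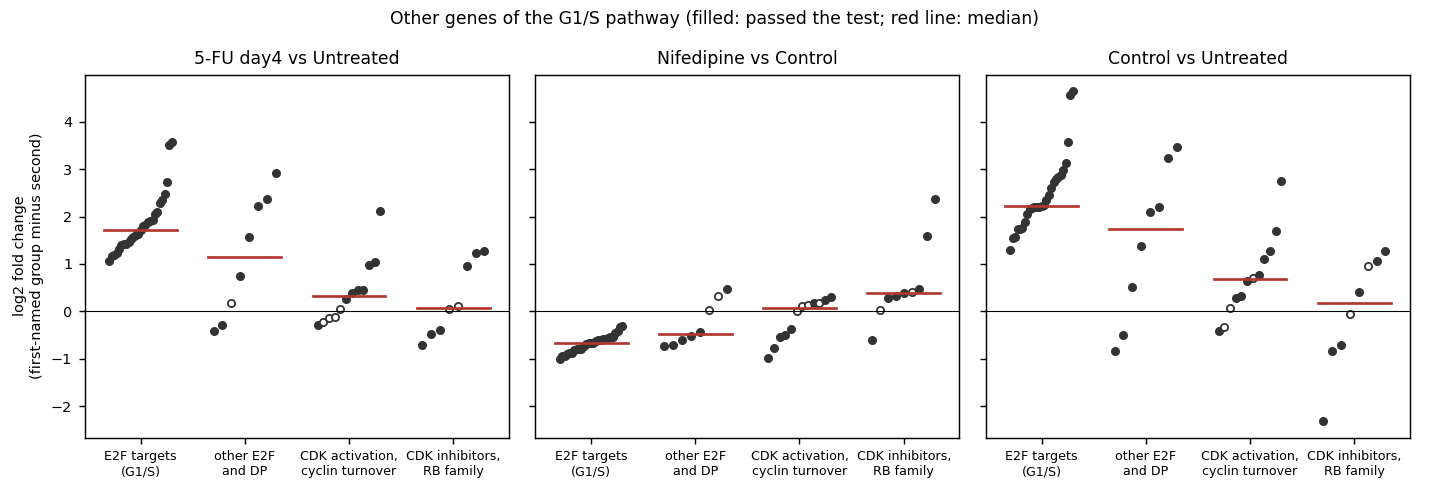
Log2 fold changes of the genes of the 4 pathway lists in the same comparisons, with a point for each gene, filled where it passed the test, and a line for the list's median. The E2F targets keep to a single side of 0 in each comparison, with medians of 1.72, -0.66 and 2.22, and the other lists spread over both sides.

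Genes of later cycle phases were higher in the same groups. All 16 mitosis genes rose after 5-FU and in Control against Untreated, while 1 rose and 11 fell with nifedipine. Of all genes tested, 26.7% rose after 5-FU, 35.8% rose in Control against Untreated and 24.2% fell with nifedipine. The summed level of the 16 mitosis genes was 2902 to 3381 CPM after 5-FU, 2102 to 2410 CPM with nifedipine, 3335 to 3465 CPM in Control and 179 to 756 CPM in Untreated, where replicate 3 was the highest. In Untreated replicates 1 to 4, in order, the mitosis genes summed to 359, 184, 756 and 179 CPM. The 27 E2F targets there summed to 1836, 1729, 2189 and 1264 CPM. Any link of these sums to the marker sums of the same libraries was not tested. Without Untreated replicate 3, the E2F target count stayed at 27 in each comparison with Untreated. Leaving out the library with the highest sum lowers the Untreated mean, so this count is no test of the rise.

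Across the 4 groups the levels of the members fell into a few orders, described here without a test. Ccnd3, Cdk4, Cdk6, Ccne1, Ccne2, Cdk2 and E2f1 had the highest mean in Control, and in each of them the Control range was separate from the next group. For all of these but Cdk6 the next groups, nifedipine and 5-FU, overlapped, and Untreated was separate below them. For Cdk6 nifedipine was separate from Control above it and from Untreated below it, and the Untreated and 5-FU ranges overlapped. For E2f3 the Control, 5-FU and nifedipine ranges overlapped and Untreated stood apart, below the other 3 groups. Ccnd1 alone had its highest mean after 5-FU and Ccnd2 alone with nifedipine.

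Likeness of pattern was measured as the root mean square difference of log2 CPM (offset 1 CPM) over the 15 libraries, after each gene's own mean was subtracted. The candidates were 9267 genes with a mean of at least 10 CPM, and genes with predicted or clone names were left out. The genes closest to Ccnd1 were Lgals1 (0.45), Gch1 (0.464) and Itgb2 (0.56), against a spread of Ccnd1 itself of 1.075. The closest to Ccnd2 were Inpp5d (0.062), Hook3 (0.063) and Ccny (0.07), against a spread of 0.19. For Cdk6 they were Vcl (0.211), Mlec (0.224) and Prdx3 (0.234), against 0.726. For Ccne2 they were Asf1b (0.173), Mad2l1 (0.198) and Clspn (0.204), against 1.166. For E2f1 they were Mcm4 (0.093), Naa50 (0.125) and Mcm3 (0.128), against 0.777, and Mcm4 and Mcm3 are also on the list of E2F targets.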

How the data were processed

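RNA was sequenced on a NextSeq instrument, per the series design text, from Nextera XT libraries, a kit that does not mark strand, per the labels' protocols. The submitters' processing notes name mm10 as the genome build; aligner and counter are not given in the sources used. The tables deposited by the authors give, per the file headers, whole-number counts of exon reads and an RPKM for each of 48737 features. Copies of a gene on alternate scaffolds were added up (4537 copies of 1923 genes), which left 46123 genes; none of the 10 members had such copies. Exon lengths were recovered from the counts and RPKM values, and the shares of paired genes use the deposited RPKM. Without strand, reads of overlapping antisense genes cannot be told apart.

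For each comparison the 2 groups' libraries alone entered an edgeR fit (version 4.0.16, R 4.3.3) with filterByExpr, TMM factors, a quasi-likelihood F test and Benjamini-Hochberg adjustment over all tested genes. The edgeR fit was tested on simulated data. Shares were compared with an exact permutation test over libraries. The alternatives, among them DESeq2 1.42.0, limma 3.58.1, other filters, library sizes and offsets, and leaving out each library, are in the closing part. Groups and replicate numbers came from the sample titles. The labels do not say whether replicates are separate mice or cultures, so the p-values measure library-to-library spread alone, and that spread may be technical. No 2 libraries of a group differed by as little as sampling noise. Depth was 9775640 to 17397392 exon reads after 5-FU, 17582453 to 22372771 with nifedipine, 20145079 to 26673045 in Control and 6171730 to 16685285 in Untreated. The members and the gene lists were chosen with earlier results of these data known. Beyond the members, genes were named from each list as at most 4 called genes with the smallest p in a comparison, and by likeness of pattern for Ccnd1, Ccnd2, Cdk6, Ccne2 and E2f1. Motifs and windows are from RefSeq (GRCm38.p6). The value of 1 marker gene is not reported here.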

Additional observations from a re-analysis of the deposited data

Results flagged for a closer look

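Among 45 sets of 4 libraries, each holding the level or share of a member in 1 group, the highest or lowest library stood far from the other 3 in 4 cases, by Dixon's test at the 95% level; chance gives about 1 in 20. Cdk4 in Nifedipine had its lowest library, replicate 2, at 164.2 TMM-scaled RPKM, with the others at 190.0 to 193.3. Cdk6 in 5-FU day4 had its highest at 36.1, with the others at 32.7 to 33.2. E2f1 in Nifedipine had its lowest at 10.9, with the others at 13.1 to 13.5. The E2f3 share of the E2f1 and E2f3 RPKM in Untreated had its highest at 81.2%, with the others at 73.4% to 74.4%.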

How the results depend on the processing

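Of 529 values of single members under the alternatives, 509 kept their direction and their side of the threshold, 6 lost the call, 5 gained it and 9 changed sign, all 9 in Ccnd2 or Cdk6. The count of members lower after 5-FU (1) became 0 with the read total of the RPKM, 0 with the exon length offset and 0 with the replicate block, and lay between 0 and 2 when a library was left out. The count higher after 5-FU (8) was 7 among genes with a mean of at least 10 CPM, where Ccne1 was not tested, and 8 under the other alternatives. In Control against Untreated 1 member was lower among genes with a mean of at least 10 CPM. Ccnd2 after 5-FU was 0.08 with the RPKM total. In Control against Untreated Ccnd2 was -0.15 among genes of at least 10 CPM, -0.02 with DESeq2 size factors, -0.02 with the DESeq2 test, -0.03 in 1 fit of all 4 groups and -0.01 without Untreated replicate 4. It was 0.26 with the RPKM total (adjusted p = 0.00295) and 0.28 with the length offset (adjusted p = 0.000633). Cdk6 after 5-FU was -0.22 without Untreated replicate 4, 0.13 with the RPKM total, 0.14 with the length offset and 0.05 without Untreated replicate 1. Ccnd3 with nifedipine was -0.21 with the RPKM total (adjusted p = 0.146). The Ccnd2 share with nifedipine was -1.11 points as a share of exon reads, and the Cdk6 share in Control against Untreated was -0.672 points without Untreated replicate 4.

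The RPKM read total moved the median of all genes by 0.19 after 5-FU and by 0.23 in Control against Untreated, and the share of calls that were higher was 73.6%, against 52.9% under TMM, and 60.1%, against 49.8% under TMM. Exon reads made up 24.96% to 26.28% of the RPKM read total in Untreated and 30.01% to 31.87% after 5-FU. They made up 35.51% to 38.86% of it in Control and 31.84% to 38.38% with nifedipine, where replicate 2 was the lowest. The causes were not tested. Groups of 3 against 3, or of 4 against 2, cannot reach p = 0.05 in the exact tests of shares, and in the others a share can cross it. When a library was left out, the Cdk6 share after 5-FU ranged from -15.6 to -11.2 points, with its call lost without any of the 4 5-FU libraries (exact p = 0.0571), and the Ccne2 share from -16.9 to -11.2. With nifedipine the Ccnd1 share ranged from 9.35 to 10.5, the Cdk6 share from -5.67 to -4.09, the Ccne2 share from 10.9 to 16.6 and the E2f3 share from 8.27 to 9.29. In Control against Untreated the Ccnd2 share ranged from -9.38 to -8.09, the Cdk6 share from -0.672 to 3.72, the Ccne2 share from -27.1 to -21.1 and the E2f3 share from -23.7 to -21.1.

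Same-numbered libraries did not deviate together (correlations of -0.141 to 0.123), so the numbers are not taken to pair them. With the replicate block Ccnd2 after 5-FU was -0.12 (adjusted p = 0.067), and no other member changed its call in any comparison. Ccne1 in Untreated, at 6 to 49 reads, is the member with the fewest reads. These counts did not follow depth alone: replicate 4 had 9 reads among 14304932 exon reads, and replicate 1 had 49 among 16685285.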
